A study of Mus musculus with 2 samples.

Results

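Voltage-gated potassium channel genes were examined in RNA-seq libraries of mouse dorsal root ganglion (DRG) neurons. The members were all genes whose deposited symbol is Kcn followed by a, ab, b, c, d, f, g, h, q, s or v and a number, expressed or not, which gave 43 of the 24411 genes in the series and 61 of its 35034 RefSeq rows. Of the 43 genes, 40 encode alpha subunits, which line the pore, and 3 encode cytoplasmic beta subunits. The antisense RNA Kcnq1ot1 is not a member. Each library was made from the pooled DRG neurons of 10 male C57BL/6 mice (C57BL/6J in the study's methods), 6 to 8 weeks old, with no transgene or gene deletion. Both groups were injected intraperitoneally on days 0 and 14 with 200 µl of saline holding 50% alum, an adjuvant made of aluminium salts. In the alum + KLH group the injection also held 100 µg of keyhole limpet hemocyanin, a large foreign protein, and DRGs were taken on day 28 in both. The control is labelled both naïve and alum alone, and following the study's methods it is called the alum pool here. The neurons came from thoracic and lumbar DRGs, and the preparation was depleted of B cells with beads, not sorted. There was 1 library per group, so no value has a replicate error, no test was possible, and each difference describes these 2 libraries only. The files give no read counts and the study's methods state only a minimum depth, so the number of reads behind each value is not known.

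Voltage-gated potassium channels open when the membrane depolarizes and let potassium leave the cell, which ends the action potential and sets how soon a neuron can fire again. Subunits of the Kv1, Kv2, Kv3, Kv4 and Kv7 subfamilies form channels among their own kind. The silent subunits (Kcnf, Kcng, Kcns and Kcnv) form no channel alone and join Kv2 subunits, and the Kcnh genes encode the EAG, ERG and ELK channels (Kv10-12). In sensory neurons Kv1 channels restrain repetitive firing, Kv4 and some Kv1 channels carry the rapidly inactivating A-type current, and Kv7 channels carry the M-current near the resting potential.

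The selectivity filter is the stretch of the pore that passes potassium and holds back sodium, and it is shared by every alpha subunit. The coding sequence of the most abundant row of each gene was read from GENCODE M21 transcripts on GRCm38, the same assembly as mm10. It was searched in frame for codons of threonine or serine, then valine, isoleucine or leucine, then glycine, then tyrosine or phenylalanine, then glycine. All 40 alpha subunit genes held this motif once, and 162 of 22500 coding genes (0.72%) held it in at least one transcript. The windows below, 33 bases of the coding strand, are shown because the encoded filter differs between some, though not all, of the subfamilies. It did not separate Kv1, Kv2 and the silent subunits from each other, or Kv3 from Kv4. Each window is from a well expressed member of its subfamily, with no Kv7 window shown, and capitals mark the 5 filter codons.
Kcna1, Kv1, chr6:126642219-126642251, minus strand: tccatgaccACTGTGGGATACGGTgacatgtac
Kcnb2, Kv2, chr1:15710037-15710069, plus strand: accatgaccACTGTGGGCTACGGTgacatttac
Kcnv1, silent, chr15:45109280-45109312, minus strand: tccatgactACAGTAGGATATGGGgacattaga
Kcnc2, Kv3, chr10:112456220-112456252, plus strand: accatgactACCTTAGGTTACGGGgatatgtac
Kcnd3, Kv4, chromosome 3, across an intron, plus strand: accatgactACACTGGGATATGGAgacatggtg
Kcnh7, Kv10-12, chr2:62777334-62777366, minus strand: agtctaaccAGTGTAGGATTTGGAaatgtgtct
The second filter codon was GTN, for valine, in all 8 Kv1, both Kv2 and all 10 silent subunit genes. It was CTN or TTN, for leucine, in the 4 Kv3 and 3 Kv4 genes, and ATN, for isoleucine, in the 5 Kv7 genes. It was GTN in 7 of the 8 Kcnh genes and ATN in Kcnh5. The fourth codon was TAN, for tyrosine, in every alpha subunit gene outside the Kcnh group and TTN, for phenylalanine, in all 8 Kcnh genes. In the 3 Kv4 genes alone the window ran across an intron.

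Past the filter, the inner pore helix of many of these channels bends at a pair of prolines, with 1 residue between them. The windows below, again 33 bases, start 4 codons before the 27th codon after the filter and show the codons of the pair, or those at the same place, in capitals. They are given to set the channel-forming subunits beside the silent ones.
Kcna1, Kv1, chr6:126642129-126642161, minus strand: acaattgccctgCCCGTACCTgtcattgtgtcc
Kcnb2, Kv2, chr1:15710127-15710159, plus strand: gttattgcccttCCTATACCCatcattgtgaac
Kcnv1, silent, chr15:45109190-45109222, minus strand: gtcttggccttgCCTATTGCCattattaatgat
Kcns3, silent, chr12:11091476-11091508, minus strand: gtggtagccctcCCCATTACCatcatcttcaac
All 17 genes of Kv1 to Kv4 had both proline codons (CCN) at this place, and none of the 23 others had such a pair within 50 codons after the filter. The 10 silent subunit and 5 Kv7 genes had the first proline codon and not the last, and the 8 Kcnh genes had neither. Over all coding genes, 28 (0.124%) held the filter motif followed by such a pair, the 17 among them. The 17 genes summed to 1113 TPM in the alum pool and 1117 TPM in the alum + KLH pool, and the 23 others to 402.8 and 400.3 TPM.

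Levels are given as TPM summed over the rows of a gene, a unit per transcript length that allows genes to be compared within a library. In pooled RNA, fewer cells of a type and less RNA per cell cannot be told apart. Of the 43 members, 27 were above 3 TPM, the study's threshold for detectable expression, in both pools, against 45.5% of all 24411 genes. In the alum pool alone 2 members passed it, Kcnh6 among them, and 14 members passed it in neither. The members summed to 2041 TPM in the alum pool and 2031 TPM in the alum + KLH pool, 0.204% and 0.203% of each library. The sum was close to that of 9 sodium channel alpha subunit genes (Scn), Scn7a among them, at 1982 and 1945 TPM. It was 5.53 and 5.03 times that of 37 other potassium channel genes (inward rectifier, K2P leak, and calcium- or sodium-activated). These sets are not alike, because the member sum includes the 3 beta subunit genes, at 525 and 514 TPM, and the other sums hold no beta subunit genes. Few members carried most of the member sum. Kcnab1, Kcna1 and Kcna2 made up 49.9% of the sum in the alum pool and 51.8% in the alum + KLH pool, and the 10 highest genes 80.6% and 81.5%. In both pools 12 members were above 50 TPM, while 4 were above 100 TPM, namely Kcnab1, Kcna1, Kcna2 and Kcnd3. The order of the levels was close to the same in the pools, with 23 of the 43 members at the same place and no member moved by more than 4 places.

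**Figure D1:**
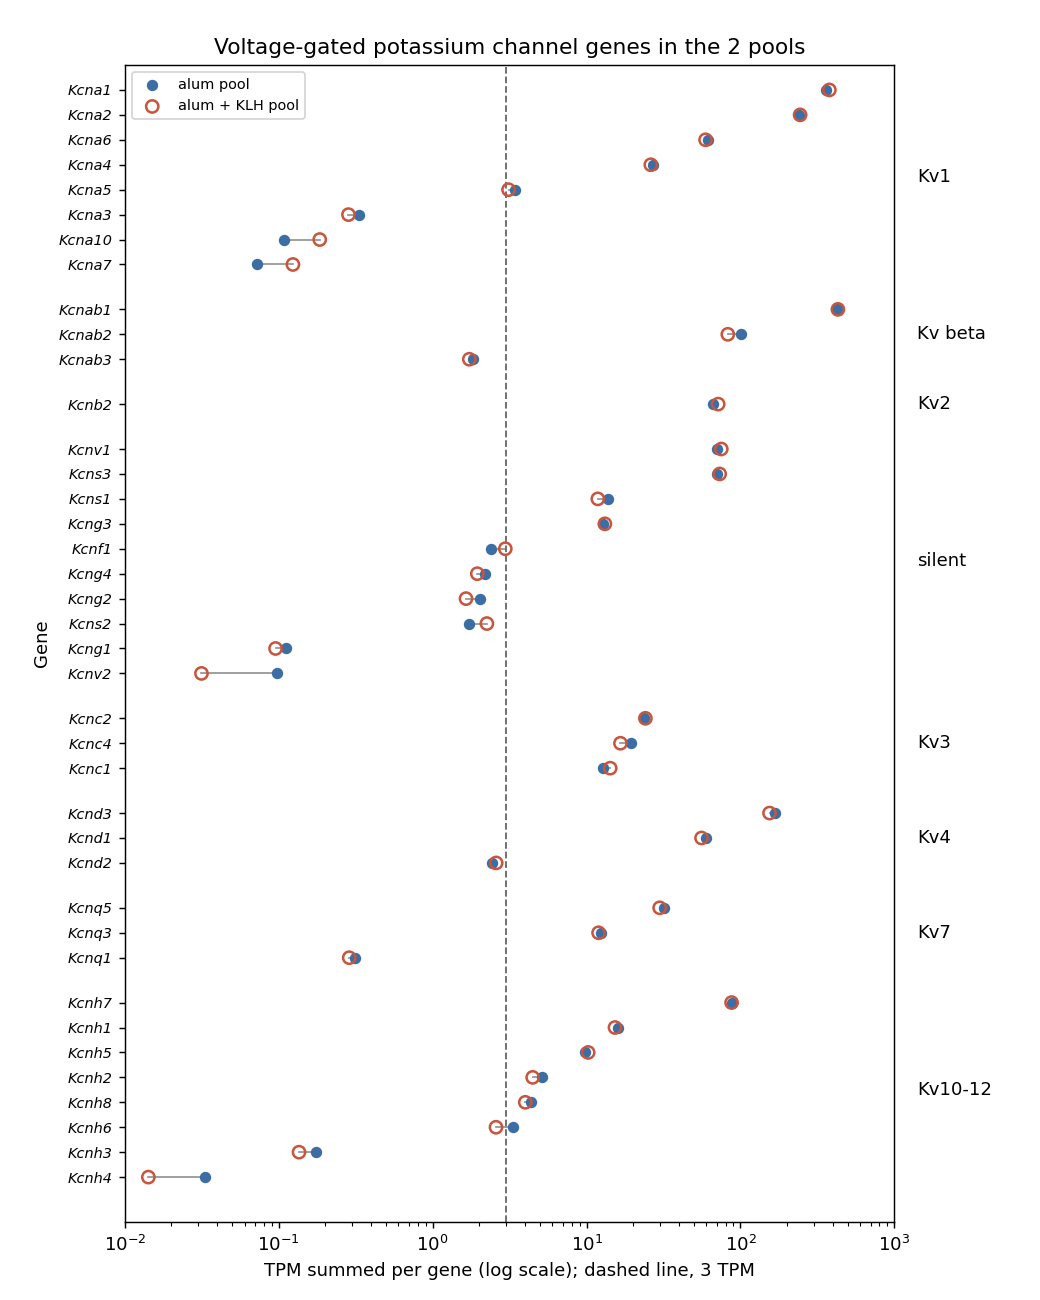
TPM summed per gene (log axis) for 39 of the 43 genes, grouped by subfamily, in the alum pool (filled points) and the alum + KLH pool (open circles), 1 library each. The dashed line is the threshold of 3 TPM, and Kcnab1, Kcna1 and Kcna2 stand above 200 TPM in both pools.

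Among the Kv1 genes, Kcna1, which encodes Kv1.1, was at 358 TPM in the alum pool and 378 TPM in the alum + KLH pool. Kcna2, which encodes Kv1.2, the usual partner of Kv1.1 in axonal channels, was at 239 and 244 TPM. Both levels were higher than those of any other alpha subunit gene among the members, in both pools. Kcna6 followed at 61.9 and 59.3 TPM. Kcna4, whose subunit inactivates quickly and gives an A-type current, was at 26.8 and 26.1 TPM. Kcna5 lay just above the threshold, at 3.42 and 3.11 TPM. Kcna3, known for its role in lymphocytes, was at 0.33 and 0.28 TPM, and the remaining 2 genes, Kcna10 and Kcna7, were between 0.072 and 0.18 TPM.
Neighbouring Kv1 genes had very different levels. On chromosome 3 of GRCm38, Kcna3 (107036162 to 107038129), Kcna2 (107090883 to 107115005) and Kcna10 (107183143 to 107195721) lie within 160 kb, and only Kcna2 among them was above 3 TPM. On chromosome 6, Kcna5 (126532551 to 126535555), Kcna1 (126636463 to 126645801) and Kcna6 (126708328 to 126740834) lie within 208 kb, and their levels in the alum pool were 3.42, 358 and 61.9 TPM. Of the 31-base words of the Kcna6 transcript, 40.1% also occur, in either orientation, in transcripts annotated to other genes, most often Gm26673. The part of these shared words in the value of Kcna6 was not tested.

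The beta subunits bind Kv1 channels from the cytoplasm and affect their inactivation and delivery to the axon. Kcnab1 had the highest level of all 43 members, at 422 TPM in the alum pool and 429.6 TPM in the alum + KLH pool, and 1.77% and 1.72% of all genes were higher. Kcnab2 was at 101 and 82.8 TPM, and Kcnab3 at 1.82 and 1.73 TPM. The 3 beta subunit genes summed to 0.762 times the sum of the 8 Kv1 genes in the alum pool and 0.723 times in the alum + KLH pool.
Of 13 genes of the axonal complex that holds Kv1 channels, 12 had rows and all 12 were above 3 TPM in both pools. Adam23 and Adam22, receptors for LGI proteins, were at 307 and 318 TPM and at 222 and 231 TPM. Cntnap2, which encodes Caspr2, was at 256 and 283 TPM, and its partner at the juxtaparanode, Cntn2, at 23.3 and 20.95 TPM. Lgi1 was at 169.9 and 173 TPM, and Lgi4, a ligand made by Schwann cells, had the lowest level of the 12, at 3.48 and 3.71 TPM.

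Both delayed rectifier genes of Kv2 were above 3 TPM in both pools, and Kcnb2 was at 65.9 TPM in the alum pool and 71.6 TPM in the alum + KLH pool. The Kv2 partner Amigo1 was at 71.8 and 69.2 TPM. Of the 10 silent subunit genes, 4 were above 3 TPM. Kcnv1 was at 70.7 and 75.0 TPM and Kcns3 at 70.4 and 73.2 TPM, both above Kcnb2 in both pools. Kcns1 was at 13.8 and 11.8 TPM and Kcng3 at 12.7 and 13.2 TPM. The remaining 6, Kcnf1, Kcng1, Kcng2, Kcng4, Kcns2 and Kcnv2, ranged from 0.031 to 2.96 TPM. Together the silent subunit genes reached 1.41 times the level of the Kv2 genes in the alum pool and 1.45 times in the alum + KLH pool. The silent subunit genes as a group had a median level of 2.29 and 2.61 TPM, beside 12.5 and 11.8 TPM over all 43 members, so Kcnv1 and Kcns3 stood apart from the other members of the group.

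All 4 Kv3 genes, whose channels close fast and serve high firing rates, were above the threshold in both pools. Kcnc2 was at 23.5 TPM in the alum pool and 24.1 TPM in the alum + KLH pool, Kcnc4 at 19.5 and 16.6 TPM and Kcnc1 at 12.8 and 14.2 TPM.
Of the Kv4 genes, which give the somatic A-type current, Kcnd3 was at 168 and 154 TPM and Kcnd1 at 59.3 and 55.8 TPM. Kcnd2 was below the threshold, at 2.42 and 2.59 TPM. As a sum, the 6 listed genes of Kv4 partner proteins were above the Kv4 genes, at 1506 and 1465 TPM beside 230 and 213 TPM. The 4 Kcnip genes, which encode calcium-binding KChIP subunits, summed to 4.20 times the Kv4 sum in the alum pool and 4.41 times in the alum + KLH pool. Kcnip4 supplied most of this, at 751 and 731 TPM. Kcnip3 was at 90.8 and 81.0 TPM, Kcnip2 at 66.7 and 62.9 TPM and Kcnip1 at 56.7 and 63.6 TPM, each below Kcnd3. Dpp10 was at 302 and 292 TPM and Dpp6 at 239 and 235 TPM, and these peptidase-like subunits together were at 2.35 and 2.48 times the Kv4 sum.

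**Figure D2:**
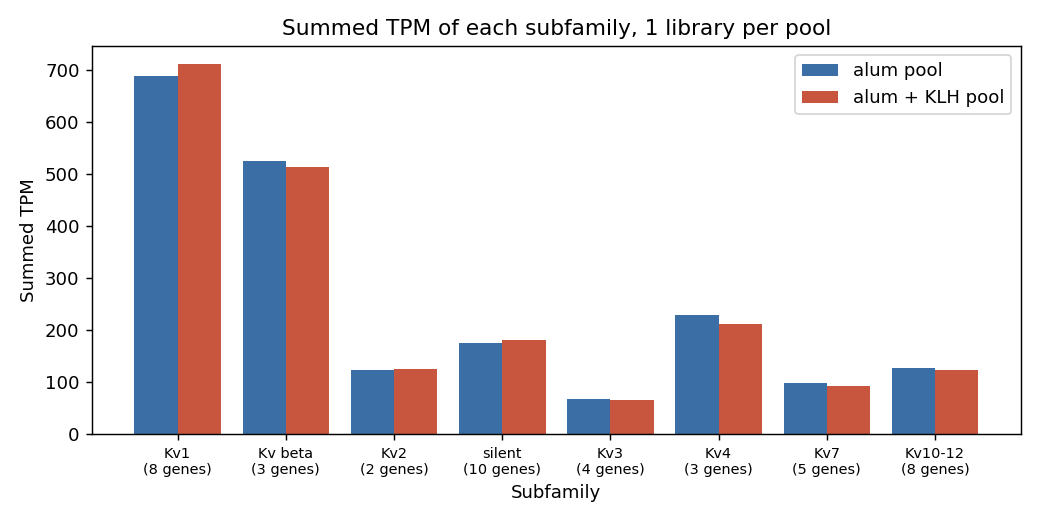
Summed TPM of each subfamily (bars start at 0) in the alum pool and the alum + KLH pool, 1 library each, with the number of genes under each name. Kv1 reached 689.6 and 711 TPM and the beta subunits 525 and 514 TPM, and the Kv4 genes, farthest apart as a ratio of sums (log2 -0.11), 230.1 and 213 TPM.

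Among the Kv7 genes, Kcnq5 was at 31.9 TPM in the alum pool and 29.9 TPM in the alum + KLH pool. Kcnq3, a subunit of the M-channel, was at 12.5 and 11.97 TPM, and Kcnq5 was at 2.55 and 2.49 times its level. Kcnq1, the cardiac and epithelial member, was at 0.31 and 0.29 TPM. Its 31-base words overlap in part (3.17%) with the antisense Kcnq1ot1. The libraries were made with a stranded kit, but the strand setting of the quantification is not given in the sources used here. Of 5 KCNE subunit genes with rows, 1 was above 3 TPM, Kcne3 at 5.80 and 5.86 TPM. The anchor genes Ank2 and Ank3 were at 582 and 542 TPM and at 109.6 and 99.7 TPM, while Sptbn4, the spectrin of axon initial segments and nodes, was at 1.23 and 0.78 TPM.
In the Kcnh group, the ERG channel gene Kcnh7 was at 88.0 and 87.5 TPM, 69.4% and 70.4% of the group sum. Of its 31-base words, 7.14% also occur, in either orientation, in transcripts annotated to other genes, most often Gca. The part of these words in the value of Kcnh7 was not tested. The EAG genes Kcnh1 and Kcnh5 were at 16.0 and 15.3 TPM and at 9.84 and 10.2 TPM. Kcnh2, the ERG channel of the heart, was at 5.11 and 4.47 TPM, the ELK gene Kcnh8 at 4.33 and 3.999 TPM and Kcnh6 at 3.34 and 2.58 TPM. Kcnh3 and Kcnh4 were below 0.18 TPM in both pools.

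Several genes have more than 1 RefSeq row, and the authors' quantification divided reads among them, so the value of a row is less certain than that of a gene. Of the 43 members, 11 have several rows. For Kcnd3, Kcnq5 and Kcnab2 the coding sequences of the main rows differ by 1 exon, shown whole below on the coding strand (GRCm38). The rows also differ outside the coding sequence, as for Kcnd3, with transcripts of 7169 bases without the exon and 2102 bases with it. The share of a row is therefore no direct measure of the use of its exon.
Kcnd3, chr3:105666962-105667018, plus strand: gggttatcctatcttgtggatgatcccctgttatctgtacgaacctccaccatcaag
Kcnq5, chr1:21461551-21461607, minus strand: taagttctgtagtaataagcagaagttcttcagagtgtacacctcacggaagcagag
Kcnab2, chr4:152434782-152434823, minus strand: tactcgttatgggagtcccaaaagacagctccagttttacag
The 57-base exon of Kcnd3 belongs to the row NM_019931, which held 2.27% of the gene total in the alum pool and 2.34% in the alum + KLH pool, so nearly all signal lay on the row without it. For Kcnq5 the row with its exon (NM_001160139) held 31.98% and 34.9%. Kcnc1 was split almost evenly between its short form, NM_008421, with 48.0% and 48.4%, and its long form, NM_001112739, with 52.0% and 51.6%. These rows differ at the end of the coding sequence, at 1536 and 1758 bases. The 2 rows of Kcns3 code for sequences of the same length, 1476 bases, and NM_001168564 held 87.2% and 89.7%. The 2 rows of Kcnab1 point to the same GENCODE transcript and were not separated further.

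**Figure D3:**
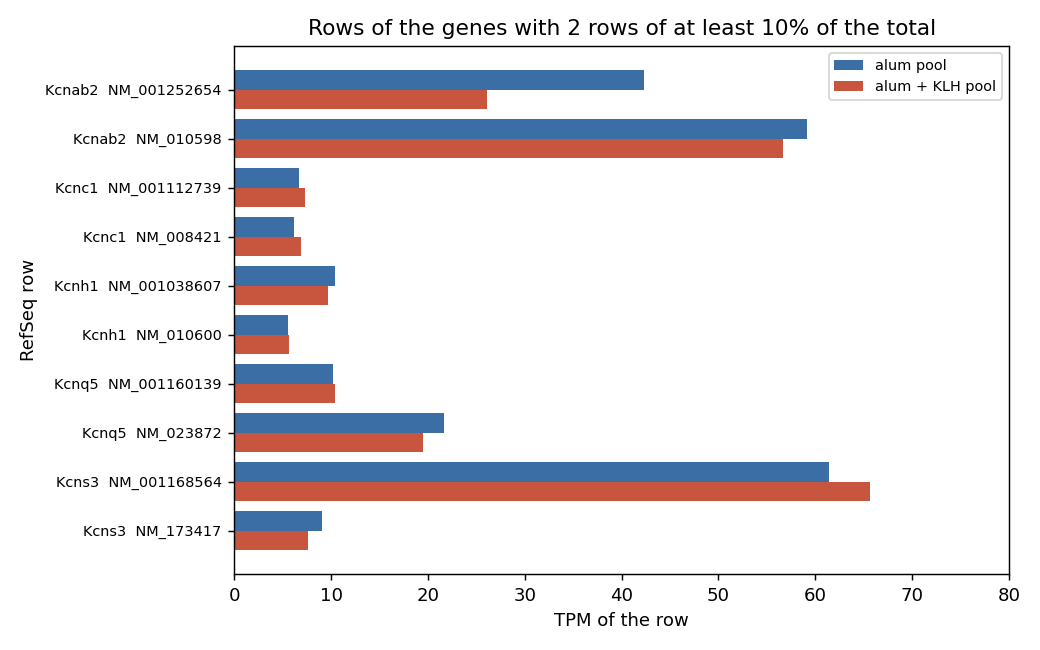
TPM of single RefSeq rows (linear axis from 0) for 5 genes in which at least 2 rows reached 10% of the gene total, in the alum pool and the alum + KLH pool, 1 library each. The pools lie close to each other in each row except NM_001252654 of Kcnab2, at 42.3 TPM in the alum pool and 26.1 TPM in the alum + KLH pool.

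To compare the pools, 1 TPM was added to every value and the alum + KLH pool was divided by the alum pool, on a log2 scale, which understates the difference of low genes. Of the 29 members above 3 TPM in at least one pool, 0 were at least 2-fold apart, and no test stands behind this count. Over all 11648 such genes the share was 1.64%, and it was 0.211% when microRNA and small nucleolar RNA genes were left out, so a count of 0 among 29 is near the background and is no result about the channel genes. The ratio was below 0 for 19 of the 29 and above 0 for 10, beside 56.4% below 0 over all such genes. Kcnh7 turned from -0.0085 to above 0 when the pools were rescaled to a common median, and no other member changed sign under rescaling. The median was -0.059 over the 29 members and -0.020 over all such genes. The ratio was smaller than 0.1 in size for 18 of the 29, and 45.4% of all such genes reached 0.1 or more.

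**Figure D4:**
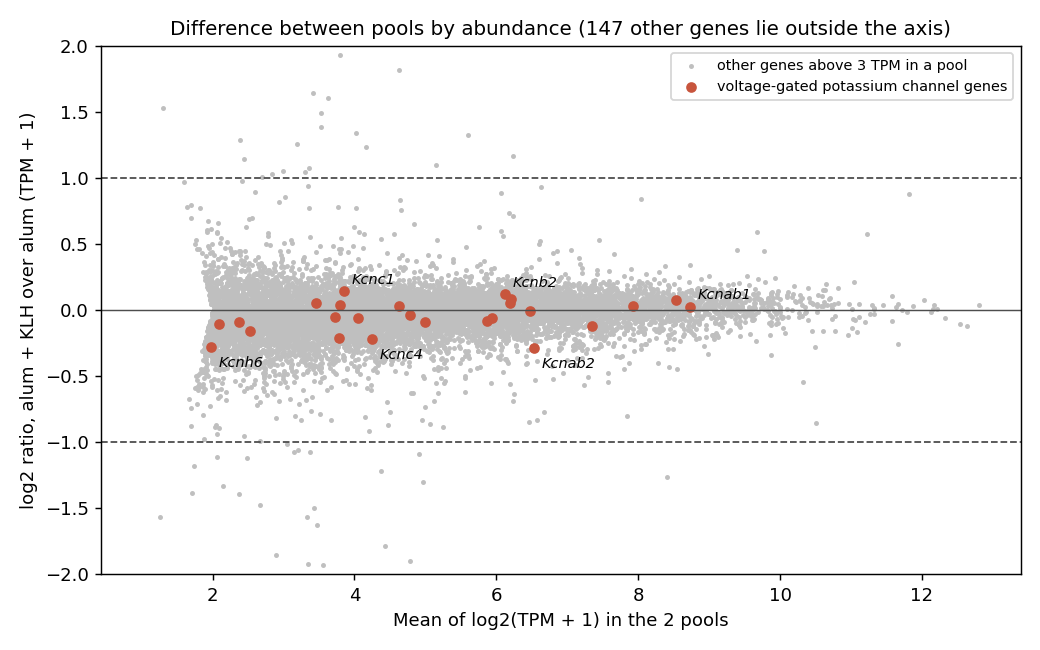
log2 ratio of the alum + KLH pool over the alum pool (TPM + 1) against mean abundance for 25 of the 29 members (red) and the other genes above 3 TPM in a pool (grey), 1 library each; 147 other genes lie beyond the axis. Dashed lines mark 2-fold, and the 25 members shown lie between -0.29 and 0.14.

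For scale, each member's ratio was compared with the scatter (SD) of ratios among the 500 genes nearest to it in abundance, which describes the spread between these libraries and is no replicate error. The 500 genes were drawn from all genes, small RNA genes included, and a few genes far apart can widen this SD. For 28 of the 29 members the ratio was smaller than this SD. The exception was Kcnab2, at -0.29 with an SD of 0.14, and 3.2% of the 500 genes were as far apart. This difference sat on 1 row. NM_001252654 was at 42.3 TPM in the alum pool and 26.1 TPM in the alum + KLH pool, a log2 ratio of -0.68, while NM_010598, the row that carries the 42-base exon shown above, was at 59.1 and 56.7 TPM, a ratio of -0.060. With the highest row in place of the sum, the ratio of Kcnab2 was -0.060.
Kcnh6, at 3.34 and 2.58 TPM, had a ratio of -0.28. For this low gene the SD among neighbours was 0.54, and 23.4% of the neighbours were as far apart. Other members with low ratios were Kcnc4 at -0.22, with an SD of 0.30, and Kcns1 at -0.21, with an SD of 0.22. Of the neighbours of Kcnc4 12.4% were as far apart, and of those of Kcns1 19%. The highest ratios were those of Kcnc1 at 0.14, Kcnb2 at 0.12, Kcnv1 at 0.085 and Kcna1 at 0.080. Both Kv4 genes above the threshold were lower in the alum + KLH pool, Kcnd3 at -0.12 and Kcnd1 at -0.085, as were Kcnq5 at -0.091 and Kcnq3 at -0.055, and these ratios were within the spread of their neighbours.
Of 33 listed partner gene symbols, which include both Kcne1l and Kcne5, 31 had rows and 25 were above 3 TPM in both pools. None of the 25 was 2-fold apart, 16 ratios were below 0 and 9 above, and their median was -0.050. The lowest was that of Adam11, -0.37 at 21.5 and 16.4 TPM, and the highest that of Kcnip1, 0.16 at 56.7 and 63.6 TPM. Both were larger in size than the SD among their 500 neighbours, as were those of Kcnip3, Nedd4l and Ank3. For Adam11 the SD was 0.19 and 3.2% of the neighbours were as far apart, and for Kcnip1 0.13 and 16.2%.

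The preparations also held RNA of other cells than neurons. All 6 neuronal markers were above 3 TPM in both pools, summing to 11737 and 11679.8 TPM. So were 4 of 6 Schwann cell markers, summing to 1487 and 1419 TPM, while Prx was at 0.95 and 1.10 TPM and Mag at 0.24 and 0.23 TPM, and all 5 satellite glia markers, at 1467 and 1352 TPM. No macrophage marker of 5 and no muscle marker of 3 passed it, 1 of 4 endothelial, 2 of 4 fibroblast and 1 of 4 pericyte and smooth muscle markers did. Marker sums of nociceptors and C-LTMR (low-threshold C-fibre neurons) were 8031 and 7508 TPM, and those of large fibre neurons 1421 and 1564 TPM. Such sums rest largely on their highest genes, as with Nefh at 1021 and 973 TPM, and do not measure the share of a cell type. Of the 5 large fibre markers, Spp1 had a log2 ratio of 0.84 and Pvalb of 0.50, while Ntrk2 was at 0.013, Ntrk3 at -0.052 and Nefh at -0.068. The 5 satellite glia markers had ratios below 0, from -0.52 for Apoe to -0.0085, with a median of -0.046. The part of cell makeup in the values of the channel genes was not tested.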

How the data were processed

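DRG neuron RNA was sequenced as paired-end stranded mRNA libraries, 1 per pool of 10 mice. Per the labels and the study's methods, the authors trimmed reads with cutadapt, quantified them with kallisto on mm10 RefSeq transcripts and deposited TPM values, 1 row per transcript. The study's methods give a minimum depth for the libraries. Tool versions and the read total of each library are not given in the sources used here. TPM keeps no depth, so counting intervals were not computed. Rows were summed per gene symbol with no filter on members, and the pools were compared over genes that passed 3 TPM in either. Ratios used a pseudocount of 1 TPM. With 1 library per group no test was run. Counts and sums cover all 43 members, of which 4, and 1 marker gene, are not reported singly here. The members, partner lists and marker lists were chosen with earlier results of these data known. Gene coordinates were from RefSeq on GRCm38 (43 of 43 matched), and transcripts and sequences from GENCODE M21, to which all 61 rows were mapped. Alternatives were the pseudocount (0.1 or 0.5 TPM), the threshold (1 or 10 TPM), rescaling to a common median, and the highest row per gene. The computation was tested on simulated data. Python 3.11.15, numpy 2.4.6, pandas 2.3.3, matplotlib 3.10.9 and Biopython 1.88 were used.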

Additional observations from a re-analysis of the deposited data

How the results depend on the processing

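No count, sum or median moved past its limit in any of 27 recomputations under other thresholds, pseudocounts, scaling or choice of rows, where the limit was 1.5 times for counts and sums and 0.1 for the log2 median. The median itself was -0.059, smaller in size than its limit, so that limit could miss a change of sign. The 48 recomputed sums of subfamilies stayed within 1.5 times too. Among recomputed ratios of single members, 115 moved by less than the SD among their 500 neighbours and 1 by more. That was Kcnab2, at -0.060 with the highest row in place of -0.29 with the sum. Many of these recomputations could hardly move a ratio, because the rescaling was small and the highest row of a gene with 1 row is its sum. Rescaling the alum + KLH pool by 1.02 turned the sign of Kcnh7 alone. A background without small RNA genes was added after seeing the data. No paired analysis was possible because there is 1 library per group and no result comes from a test, and for the same reason no library could be left out. The study's methods state only a minimum depth, and TPM values keep no read counts, so no counting interval could be given for members under 3 TPM.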
